A study of Rattus norvegicus with 16 samples.

Results

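Liver mRNA of male Lewis rats, an inbred strain, was compared between 18 and 9 months of age. The samples were chosen by their titles, 3 of 18 months (arrays 1, 3 and 4) and 3 of 9 months (arrays 1, 2 and 3), which makes 6 of the 16 liver samples of the series. The other samples are 3 of 3 months, 3 of 12 months and 4 of 24 months. The labels name no treatment and no engineered allele for any group, and all rats were kept under pathogen-free conditions with a daily cycle of light and dark and unrestricted food. Each sample was measured on 1 one-colour array. The labels do not say whether the samples came from separate animals, so the p-values measure the spread between these samples. They also give no hour of tissue collection.

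Hepatocytes make up most of the liver mass and carry out its synthesis of lipids, bile acids and plasma proteins. Much of this work is set by the time of day, through a feedback loop in which Bmal1 with Clock or Npas2 switches on the Per, Cry and Nr1d genes, whose products in turn hold Bmal1 and its partners back. It also follows feeding and the pulses of growth hormone, which in rats shape the male pattern of liver enzymes.

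Levels are given as log2 intensity after subtraction of the 75th percentile of each array, so a difference of 1 is a doubling, and levels of different genes cannot be set against each other. On the 6 arrays 57.7% to 64.3% of probes lay well above background and no spot was saturated. The mean correlation of an array with the others of its age was 0.992 to 0.995 at 9 months and 0.992 to 0.993 at 18 months, against 0.966 for 12-month array 2, 0.974 for 24-month array 3 and 0.975 for 24-month array 4, which stood apart. Between arrays of 1 age the SD of a gene had a median of 0.15 at 9 months and 0.13 at 18 months. The hepatocyte products albumin (Alb, 9.77 ± 0.18 (SD, n = 3) at 9 months and 9.72 ± 0.05 at 18 months, adjusted p = 0.874) and transthyretin (Ttr, 10.07 ± 0.09 (SD, n = 3) at 9 months and 10.02 ± 0.15 at 18 months, adjusted p = 0.930) were well above background on every array of both ages. The 18-month arrays filled slide 7 and were scanned on day 3 in session 2, whereas the 9-month arrays lay on slides 1 and 2 and were scanned on day 1 in session 1. A session here is the calendar year of the scan date in the file header. The 9-month and 18-month arrays were thus scanned in different years. No slide, scan day or scan session held both ages, so slide, scan and age cannot be told apart within this pair. Only the 12-month group spanned both sessions, with array 2 on slide 2 beside 9-month arrays 1 and 3, and arrays 3 and 4 scanned in session 2.

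Livers of 18 months held more mRNA of clock repressors and clock output factors, of the bile acid enzyme Cyp7a1 and of the fasting-linked Igfbp1. They held less of the clock activators Bmal1 and Npas2 and of some genes of fatty acid synthesis. Some genes of cholesterol synthesis and cell division were also lower. With the scan session as a term in the fit, few or no members of these last lists were called lower. By limma, with a mean per age fitted over the 16 arrays, 3956 of 21457 genes differed between the ages at an adjusted p under 0.05, which is 18.4% of the genes tested. Of them 1908 (8.89% of genes tested) were higher and 2048 (9.54%) lower at 18 months, and 1878 differed at least 2-fold. The median log2 change of all genes was -0.07. Among the 11619 genes with a symbol, 1856 were called, 813 higher and 1043 lower. With normexp background correction 702 genes (3.27%) were called, 427 higher and 275 lower, so that 60.8% of the calls were rises in place of 48.2%. Normexp was run with a constant added to every signal, which shrinks the changes of dim genes. With slide as a random block 63 genes (0.294%) were called, 53 higher and 10 lower. With the scan session as a term 1965 genes (9.16%) were called, of which 621 were among the 3956. That term was estimated only from 12-month array 2, which stood apart, against 12-month arrays 3 and 4. All values given with the session term rest on this contrast. Of the 137 genes that the naming rule picked, 8 passed with the slide block and 46 with the session term, and 135 kept their sign in the latter. The plot of calls under each processing gives these counts.

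Clock genes held some of the largest changes. Of 15 core clock genes tested, 7 were higher and 3 lower at 18 months, and of 10 clock output genes, 6 were higher and 1 lower, against 8.89% and 9.54% of all genes tested. The median log2 change was -0.17 for the core list, in which rises and falls offset each other, and 1.26 for the output list. The activators Bmal1, Npas2 and Clock fell, whereas the repressors Per1, Per2, Per3, Cry2, Nr1d1, Nr1d2 and Bhlhe41 rose. The fit with the scan session as a term called 4 core genes higher and 1 lower, and 4 output genes higher. The labels do not give the hour of collection, and its part in these values was not tested.

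Promoter letters of clock genes that were called are shown because these genes moved in opposite directions and are known to be driven through different short elements. The sequences are RefSeq promoters of build GRCr8, the 250 bases before the start site in the direction of the gene, with the element found in capitals. The elements searched on both strands were the E-box CACGTG, bound by Bmal1 with its partners, the D-box TTATGTAA, bound by Dbp and Tef, and AGGTCA, the core of the element bound by ROR and Nr1d factors. None of these overlaps another in the promoters shown. Of 33469 promoters of the same length in the table, 5.59% held the E-box, 0.83% the D-box and 14.1% the ROR element core. Promoters of 13 core clock genes were matched, and 3 held the E-box, 1 the D-box and 2 the ROR element core. Of 10 matched clock output promoters, 2 held the E-box, 0 the D-box and 2 the ROR element core. The E-box lies in Bhlhe41 (chr4:180569356-180569605, minus strand), Tef (chr7:115206577-115206826, plus strand) and Nr1d1 (chr10:84229455-84229704, minus strand), which were higher at 18 months, and the D-box in Per2 (chr9:99496994-99497243, minus strand), also higher. The ROR element core lies in Nr1d2 (chr15:9954784-9955033, plus strand), which was higher, and in Bmal1 (chr1:176766078-176766327, plus strand), which was lower. It was also found in the clock output genes Usp2 and Gys2, both higher and not printed. The other called clock genes, Dbp, Per3, Per1, Cry2, Npas2, Clock, Nfil3, Fkbp5 and Tsc22d3, held none of these letters in this window.
Bhlhe41: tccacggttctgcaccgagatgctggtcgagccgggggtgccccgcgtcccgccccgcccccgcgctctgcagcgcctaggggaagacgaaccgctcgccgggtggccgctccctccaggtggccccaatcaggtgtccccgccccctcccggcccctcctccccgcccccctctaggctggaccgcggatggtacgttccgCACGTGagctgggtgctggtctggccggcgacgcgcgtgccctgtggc
Tef: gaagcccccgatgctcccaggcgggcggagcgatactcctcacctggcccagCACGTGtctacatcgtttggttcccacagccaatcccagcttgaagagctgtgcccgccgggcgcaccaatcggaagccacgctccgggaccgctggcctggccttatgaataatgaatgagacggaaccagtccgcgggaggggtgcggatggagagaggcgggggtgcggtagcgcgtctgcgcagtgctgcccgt
Nr1d1: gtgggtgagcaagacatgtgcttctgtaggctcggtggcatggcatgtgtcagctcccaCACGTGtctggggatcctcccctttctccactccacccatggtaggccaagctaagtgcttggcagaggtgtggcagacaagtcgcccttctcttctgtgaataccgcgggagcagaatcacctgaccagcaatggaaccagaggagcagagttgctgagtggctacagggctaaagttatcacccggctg
Per2: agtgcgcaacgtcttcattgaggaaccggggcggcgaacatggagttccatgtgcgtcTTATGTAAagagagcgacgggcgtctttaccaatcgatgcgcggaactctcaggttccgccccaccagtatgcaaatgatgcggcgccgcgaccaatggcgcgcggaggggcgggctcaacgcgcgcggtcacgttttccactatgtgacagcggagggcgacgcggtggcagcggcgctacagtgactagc
Nr1d2: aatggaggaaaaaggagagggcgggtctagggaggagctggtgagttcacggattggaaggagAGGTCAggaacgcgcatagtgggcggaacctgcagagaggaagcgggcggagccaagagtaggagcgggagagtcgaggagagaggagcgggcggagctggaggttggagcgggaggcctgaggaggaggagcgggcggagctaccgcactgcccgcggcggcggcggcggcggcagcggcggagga
Bmal1: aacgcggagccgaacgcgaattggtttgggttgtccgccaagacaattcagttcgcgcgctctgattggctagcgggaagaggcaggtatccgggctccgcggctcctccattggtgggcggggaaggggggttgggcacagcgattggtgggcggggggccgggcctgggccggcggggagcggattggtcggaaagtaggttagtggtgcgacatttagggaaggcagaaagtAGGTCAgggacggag

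Bmal1, the core activator whose promoter is printed above, measured 2.25, 2.27 and 2.21 on the 9-month arrays and -0.52, -3.16 and -3.79 on the 18-month arrays. The 18-month arrays spread over more than 3 log2 units and all lay below the 9-month arrays, a fall of 26.5-fold, log2 change -4.73 ± 0.78 (SE), adjusted p = 0.00150. Its partner Npas2 measured 1.48, 1.31 and 1.60 on the 9-month arrays and -1.10, -3.14 and -4.69 on the 18-month arrays, with 18-month array 1 the highest of its age. It too had no overlap between the ages, which held for 51.0% of all genes tested. It fell 21.7-fold, log2 change -4.44 ± 0.89 (SE), adjusted p = 0.00471, and its second probe gave a log2 change of -1.05. Clock, the other partner, was above background on 3 arrays of 9 months and 2 of 18 months and fell 2.03-fold, adjusted p = 0.0202, up to 0.0915 without 9-month array 1 or 2 or 18-month array 4.

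Per3, a period gene and repressor of the loop, measured -6.92, -6.85 and -6.53 on the 9-month arrays and -3.21, -2.35 and -2.49 on the 18-month arrays. It lay below background on the 9-month arrays, which makes its rise at least 3.80-fold (adjusted p = 3.98e-06), and its second probe gave a log2 change of 2.39. Bhlhe41, a repressor that competes at the E-box, measured -2.03, -2.85 and -2.65 on the 9-month arrays and 1.52, 2.38 and 1.88 on the 18-month arrays. This was a rise of 21.7-fold, log2 change 4.44 ± 0.41 (SE), adjusted p = 3.83e-05. The nuclear receptor Nr1d2, a repressor of Bmal1, measured -3.70, -3.18 and -3.48 on the 9-month arrays and -1.58, -1.17 and -1.31 on the 18-month arrays. Nr1d2 rose 4.28-fold, log2 change 2.10 ± 0.24 (SE), adjusted p = 0.000171. Its relative Nr1d1 rose 3.23-fold, adjusted p = 0.00495. The period gene Per2 rose 3.58-fold, adjusted p = 0.0166, up to 0.0742 without 9-month array 2 or 18-month array 3 or 4, Per1 2.12-fold, adjusted p = 0.0122, up to 0.0586 without 18-month array 3 or 4, and the cryptochrome Cry2 1.74-fold, adjusted p = 0.0154, up to 0.0669 without 9-month array 2 or 18-month array 3. Cry1 did not pass (1.26 ± 0.18 (SD, n = 3) at 9 months and 0.99 ± 0.34 at 18 months, adjusted p = 0.570), nor did Bhlhe40 (2.42 ± 0.18 (SD, n = 3) at 9 months and 1.78 ± 0.20 at 18 months, adjusted p = 0.116) or the activator Rora (-0.89 ± 0.17 (SD, n = 3) at 9 months and -1.07 ± 0.20 at 18 months, adjusted p = 0.615). Per1, Per2, Cry2, Nr1d1, Npas2 and Clock were named after their values were seen, to complete the list.

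Dbp, a transcription factor that carries clock timing to metabolic genes through the D-box, measured -0.41, -0.55 and -0.11 on the 9-month arrays and 4.12, 5.08 and 5.05 on the 18-month arrays. Every 18-month array lay more than 4 log2 units above every 9-month array, a rise of 34.5-fold, log2 change 5.11 ± 0.46 (SE), adjusted p = 3.02e-05. The related factor Tef measured -1.77, -1.44 and -1.70 on the 9-month arrays and 0.03, 0.70 and 0.41 on the 18-month arrays. Tef rose 4.04-fold, log2 change 2.02 ± 0.20 (SE), adjusted p = 5.31e-05. Nfil3, which opposes Dbp and Tef at the same element, moved the other way and measured 2.46, 2.51 and 2.36 on the 9-month arrays and 0.38, 0.81 and 0.87 on the 18-month arrays. It fell 3.38-fold, log2 change -1.76 ± 0.24 (SE), adjusted p = 0.000547. The clock-controlled deubiquitinase Usp2 measured -1.41, -1.43 and -0.54 on the 9-month arrays and 0.97, 2.60 and 2.37 on the 18-month arrays. Usp2 rose 8.62-fold, log2 change 3.11 ± 0.59 (SE), adjusted p = 0.00342. The glucocorticoid-induced Fkbp5 rose 2.45-fold, adjusted p = 0.00213 and Tsc22d3 2.18-fold, adjusted p = 0.0298, up to 0.112 without 9-month array 1, 2 or 3 or 18-month array 3 or 4, but the second probe of Tsc22d3 gave a log2 change of -0.10. Both were named after their values were seen.

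At the other ages Dbp was -0.59 ± 0.40 at 3 months, 5.41 ± 0.11 at 12 months and 4.11 ± 1.02 at 24 months (n = 4), and Bmal1 2.23 ± 0.11 at 3 months, -2.34 ± 1.01 at 12 months and -1.13 ± 1.18 at 24 months (n = 4). The 3-month level of both lay near that of 9 months and the 12-month and 24-month levels near that of 18 months. Bhlhe41 was -2.33 ± 0.21 at 3 months, 2.31 ± 0.21 at 12 months and 1.27 ± 0.90 at 24 months (n = 4), with the same order. On 12-month array 2, which shared a slide and session with 9-month arrays 1 and 3, Dbp was at 5.50, Bhlhe41 at 2.08 and Per3 at -2.16, all on the side of 18 months. With the scan session as a term the log2 change was 5.25 for Dbp (adjusted p = 0.00567), 4.21 for Per3 (adjusted p = 0.00150) and 4.10 for Bhlhe41 (adjusted p = 0.00973). These 3 genes and Tef were among the 8 named genes that passed with slide as a random block.

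**Figure D1:**
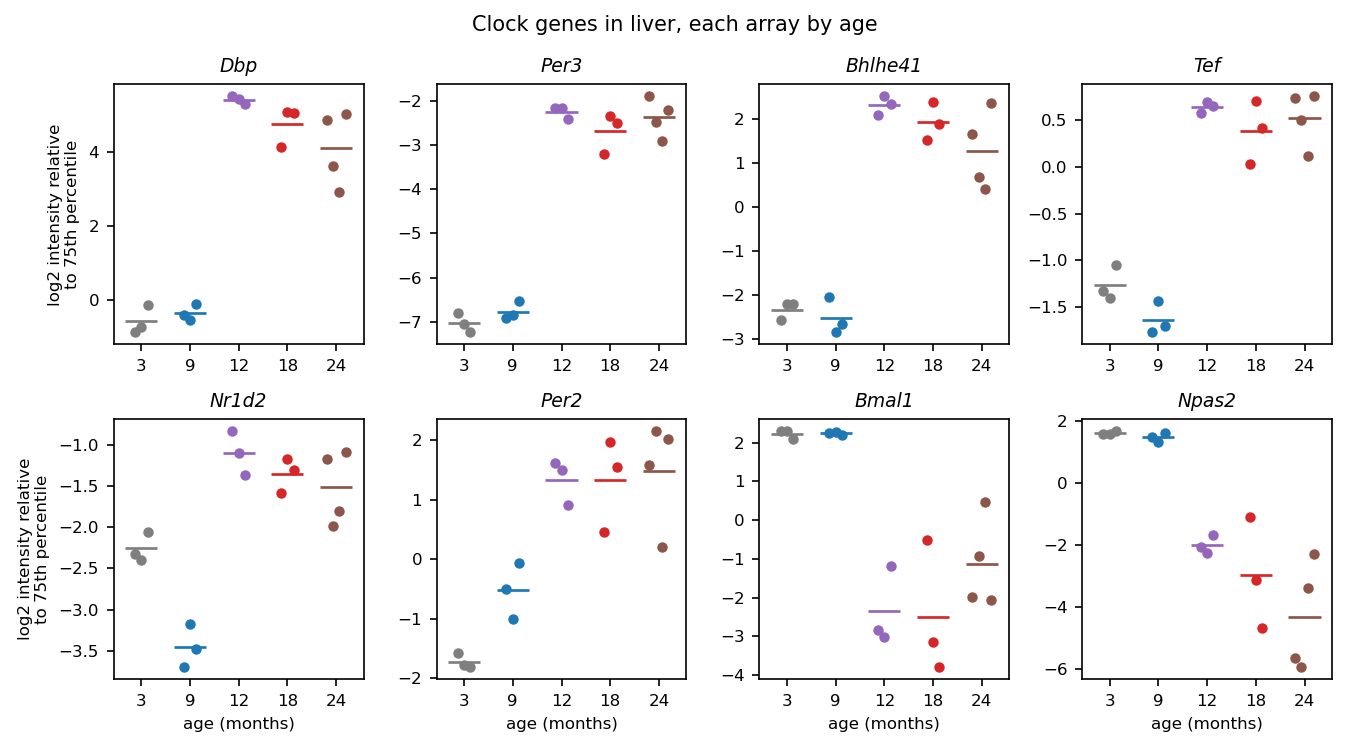
Level of 8 clock genes (vertical axis, log2 intensity relative to the 75th percentile of the array) on each of 16 arrays by age in months (horizontal axis), 1 point per array and a line at the mean. Dbp, Per3, Bhlhe41 and Tef are low at 3 and 9 months and high from 12 months on, and Bmal1 and Npas2 show the reverse.

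Part of the fatty acid synthesis genes fell at 18 months. Of 24 tested, 6 fell (25.0%, against 9.54% of all genes) and 0 rose, with a median log2 change of -0.94. With the session term 3 members were lower, and in the 6 arrays fitted alone 17 were lower. Pnpla3, a lipid droplet acyltransferase and lipase induced by feeding, measured 1.93, 2.04 and 2.17 on the 9-month arrays and -3.52, -2.82 and -5.37 on the 18-month arrays. It was above background on every 9-month array and on 2 of the 18-month arrays, and fell 61.8-fold, log2 change -5.95 ± 1.25 (SE), adjusted p = 0.00633, with -5.83 from its second probe. The other ages lay at -4.07 ± 0.17 at 3 months, -2.20 ± 2.44 at 12 months and -3.39 ± 2.35 at 24 months (n = 4), so the 9-month arrays were above all others. Fads1, a fatty acid desaturase, measured 4.66, 5.11 and 4.54 on the 9-month arrays and 3.47, 3.52 and 2.97 on the 18-month arrays. Fads1 fell 2.74-fold, log2 change -1.45 ± 0.25 (SE), adjusted p = 0.00178. Malic enzyme Me1, a source of NADPH, fell 2.36-fold, adjusted p = 0.00149, and the elongase Elovl5 1.80-fold, adjusted p = 0.0112, up to 0.0568 without 18-month array 4. Fads2 and Gpam, which makes lysophosphatidate, also fell (1.92-fold, adjusted p = 0.0484, up to 0.192 without any 1 of the 6 arrays and 1.92-fold, adjusted p = 0.0283, up to 0.113 without 9-month array 1, 2 or 3 or 18-month array 3 or 4) and were named after their values were seen. The central enzymes did not pass: fatty acid synthase Fasn was 7.85 ± 0.15 (SD, n = 3) at 9 months and 5.99 ± 0.78 at 18 months, adjusted p = 0.134. The regulator Srebf1 was 6.89 ± 0.39 (SD, n = 3) at 9 months and 5.66 ± 0.94 at 18 months, adjusted p = 0.245, and Acaca 5.50 ± 0.26 (SD, n = 3) at 9 months and 5.58 ± 0.42 at 18 months, adjusted p = 0.920.

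Part of the cholesterol synthesis genes fell. Of 25 genes, 8 were lower (32.0%, against 9.54% of all genes) and 0 higher, with a median log2 change of -0.64. In the fit with the scan session as a term 1 was lower, and likewise 1 with scan day as a random block. Pmvk, a mevalonate pathway kinase, measured 4.11, 3.96 and 3.89 on the 9-month arrays and 2.11, 2.24 and 1.94 on the 18-month arrays. It fell 3.71-fold, log2 change -1.89 ± 0.25 (SE), adjusted p = 0.000432. The reductase Dhcr7, which makes cholesterol from its last precursor, measured 4.84, 4.76 and 4.81 on the 9-month arrays and 2.94, 2.96 and 2.76 on the 18-month arrays. Dhcr7 fell 3.78-fold, log2 change -1.92 ± 0.31 (SE), adjusted p = 0.00136. Fdps, which makes farnesyl diphosphate, measured 6.78, 7.01 and 6.57 on the 9-month arrays and 5.39, 5.56 and 4.93 on the 18-month arrays. Fdps fell 2.82-fold, log2 change -1.49 ± 0.28 (SE), adjusted p = 0.00334. The sterol dehydrogenase Nsdhl fell 1.90-fold, adjusted p = 0.000883, Tm7sf2 2.68-fold, adjusted p = 0.00487, the cyclase Lss 2.05-fold, adjusted p = 0.00836 and Sc5d 1.56-fold, adjusted p = 0.0190, up to 0.0729 without 9-month array 1 or 2 or 18-month array 3 or 4. Insig1, which holds the sterol sensor in the endoplasmic reticulum, fell 4.06-fold, adjusted p = 0.0332, up to 0.105 without 9-month array 1, 2 or 3 or 18-month array 1 or 4, but with the scan session as a term its log2 change was 0.34. The last 4 were named after their values were seen. The synthase Hmgcs1 did not pass (5.62 ± 0.24 (SD, n = 3) at 9 months and 5.65 ± 0.26 at 18 months, adjusted p = 0.965).

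Fatty acid oxidation had 5 of 31 members higher (16.1%, against 8.89% of all genes) and 0 lower, with a median log2 change of 0.14. By limma 0 were higher and 1 lower with the scan session as a term, and 0 were higher with scan day as a random block, against 2 and 4 higher at an unadjusted p under 0.05. Ppara, the fasting-induced nuclear receptor that drives this pathway, measured -0.01, -0.17 and -0.06 on the 9-month arrays and 0.84, 1.31 and 1.37 on the 18-month arrays. Ppara rose 2.39-fold, log2 change 1.26 ± 0.25 (SE), adjusted p = 0.00421. Acot2, a mitochondrial acyl-CoA thioesterase, measured 2.59, 2.40 and 2.63 on the 9-month arrays and 3.54, 4.07 and 4.24 on the 18-month arrays. Acot2 rose 2.66-fold, log2 change 1.41 ± 0.30 (SE), adjusted p = 0.00700. The reductase Decr1 rose 2.08-fold, adjusted p = 0.00813 and Acot1 4.35-fold, adjusted p = 0.0351, up to 0.134 without any 1 of the 6 arrays. Cpt1a, which admits fatty acids to mitochondria, rose 3.55-fold, adjusted p = 0.0228, up to 0.0909 without 9-month array 1 or 3 or 18-month array 3 or 4, and its second probe gave a log2 change of 0.23.

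The genes of glucose and glycogen metabolism went both ways, with 3 of 22 higher (13.6%) and 2 lower (9.09%), against 8.89% and 9.54% of all genes. Fbp2, the muscle form of fructose bisphosphatase, measured -1.16, -1.84 and -1.58 on the 9-month arrays and 0.77, 0.16 and 0.96 on the 18-month arrays. Fbp2 rose 4.46-fold, log2 change 2.16 ± 0.28 (SE), adjusted p = 0.000372. The glycogen synthase Gys2 measured 6.48, 6.24 and 6.74 on the 9-month arrays and 7.45, 7.72 and 8.31 on the 18-month arrays. Gys2 rose 2.53-fold, log2 change 1.34 ± 0.21 (SE), adjusted p = 0.000995. Pck1, the first committed enzyme of gluconeogenesis, rose 2.09-fold, adjusted p = 0.00248, and pyruvate carboxylase Pc fell 1.63-fold, adjusted p = 0.0150, up to 0.0531 without 9-month array 3 or 18-month array 4.

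In the insulin and growth hormone axis 2 of 24 genes were higher (8.33%) and 5 lower (20.8%), against 8.89% and 9.54% of all genes. Igfbp1, a binding protein that insulin represses, measured 1.13, 1.31 and 0.71 on the 9-month arrays and 3.72, 4.43 and 3.71 on the 18-month arrays. Igfbp1 rose 7.49-fold, log2 change 2.91 ± 0.41 (SE), adjusted p = 0.000593. At the other ages it was 5.30 ± 0.09 at 3 months, 4.20 ± 1.02 at 12 months and 5.31 ± 0.49 at 24 months (n = 4), so that 9 months was the lowest age. The insulin receptor substrate Irs2, also repressed by insulin, rose 2.47-fold, adjusted p = 0.0310, up to 0.137 without 9-month array 1, 2 or 3 or 18-month array 4. Irs3, another substrate of the receptor and outside the list, measured 0.96, 0.80 and 0.49 on the 9-month arrays and -1.80, -1.48 and -2.96 on the 18-month arrays. Irs3 fell 7.10-fold, log2 change -2.83 ± 0.66 (SE), adjusted p = 0.0104, up to 0.0524 without 18-month array 4. Socs2, a growth hormone target that ends receptor signalling, measured 2.08, 2.13 and 1.48 on the 9-month arrays and -3.32, -4.16 and -0.91 on the 18-month arrays. It was above background on 2 of the 18-month arrays and fell 25.8-fold, log2 change -4.69 ± 0.84 (SE), adjusted p = 0.00239, and 18-month array 4 lay above the other 2 of its age. Stat5b, the factor that growth hormone activates, measured -0.39, -0.06 and -0.48 on the 9-month arrays and -1.06, -1.64 and -1.53 on the 18-month arrays. Stat5b fell 2.15-fold, log2 change -1.10 ± 0.21 (SE), adjusted p = 0.00374. Igfals, the acid-labile subunit that carries IGF1 in blood, fell 2.15-fold, adjusted p = 0.00376, Stat5a 1.73-fold, adjusted p = 0.00829 and Igfbp3 1.57-fold, adjusted p = 0.0192, up to 0.0866 without 9-month array 1 or 18-month array 1 or 4. Igf1 itself was 9.51 ± 0.02 (SD, n = 3) at 9 months and 9.31 ± 0.04 at 18 months, adjusted p = 0.429, and the receptor Ghr 5.39 ± 0.11 (SD, n = 3) at 9 months and 5.08 ± 0.06 at 18 months, adjusted p = 0.292. Irs2, Stat5a, Igfbp3 and Acot1 were named after their values were seen.

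**Figure D2:**
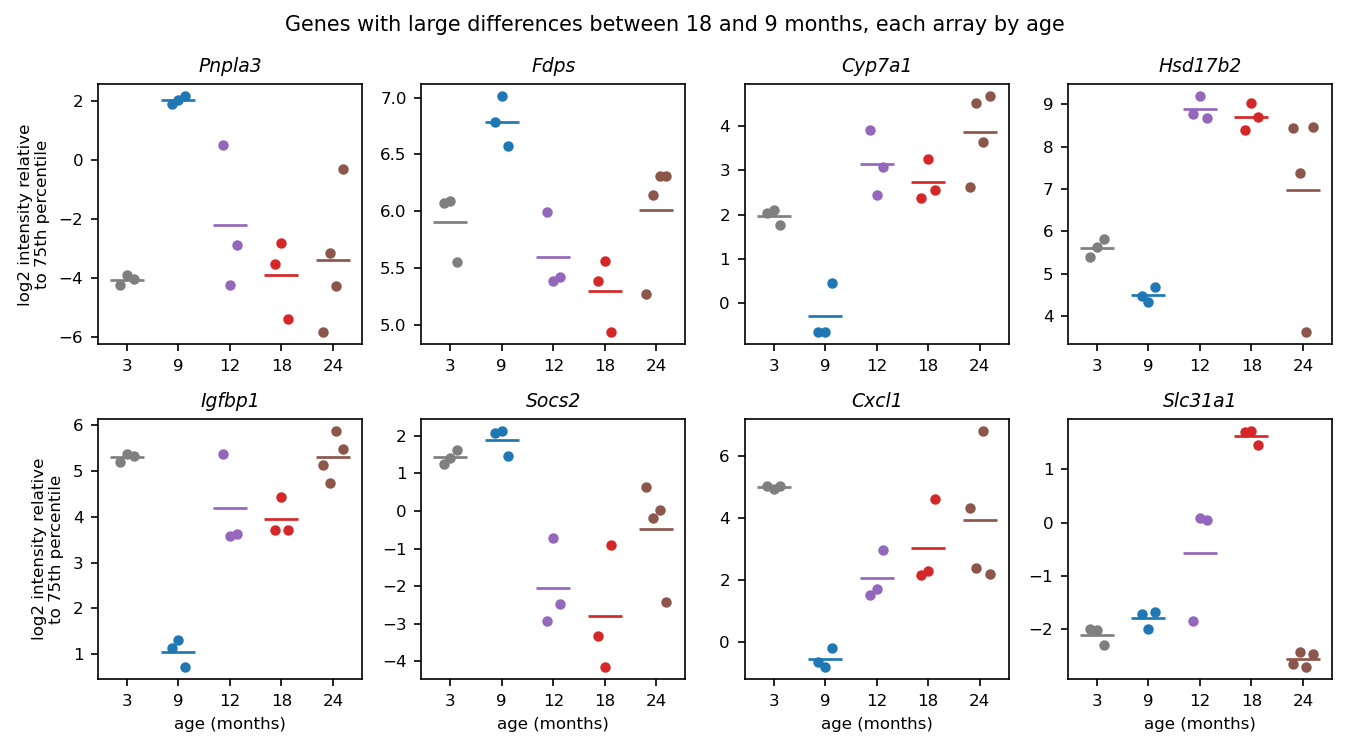
Level of 8 genes with large differences (vertical axis, log2 intensity relative to the 75th percentile of the array) on each array by age in months (horizontal axis), with a line at the mean. The 9-month arrays lie above all others for Pnpla3 and Fdps and below all others for Cyp7a1, Igfbp1 and Cxcl1, and the 18-month arrays lie above all others for Slc31a1.

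Of 17 bile acid genes 1 was higher and 1 lower (5.88% each, against 8.89% and 9.54% of all genes). The higher gene was Cyp7a1, the rate-limiting enzyme of bile acid synthesis, which measured -0.65, -0.65 and 0.46 on the 9-month arrays and 2.37, 3.26 and 2.56 on the 18-month arrays. Cyp7a1 rose 8.05-fold, log2 change 3.01 ± 0.50 (SE), adjusted p = 0.00166. The lower gene was Nr1h4, the bile acid receptor that restrains Cyp7a1, which measured 1.77, 1.99 and 1.83 on the 9-month arrays and 1.34, 1.16 and 1.22 on the 18-month arrays. Nr1h4 fell 1.54-fold, log2 change -0.62 ± 0.12 (SE), adjusted p = 0.00430. Cyp8b1, which sets the share of cholic acid, did not pass (3.70 ± 0.46 (SD, n = 3) at 9 months and 4.96 ± 0.61 at 18 months, adjusted p = 0.113), nor did the export pump Abcb11 (4.47 ± 0.31 (SD, n = 3) at 9 months and 3.74 ± 0.21 at 18 months, adjusted p = 0.0947).

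Hsd17b2 and Cyp17a1 were among the largest rises. Hsd17b2, which inactivates oestradiol and testosterone, measured 4.48, 4.33 and 4.68 on the 9-month arrays and 8.39, 9.02 and 8.71 on the 18-month arrays. Hsd17b2 rose 18.5-fold, log2 change 4.21 ± 0.90 (SE), adjusted p = 0.00678. Cyp17a1, a steroid hydroxylase, measured 0.24, -0.36 and 0.44 on the 9-month arrays and 3.05, 2.77 and 2.97 on the 18-month arrays. Cyp17a1 rose 7.07-fold, log2 change 2.82 ± 0.53 (SE), adjusted p = 0.00306. Of 19 male-biased genes 3 were higher (15.8%, against 8.89% of all genes) and 0 lower. In the 6 arrays fitted alone 4 male-biased genes were higher and 5 lower, so falls in this list depended on the fit. Of 15 female-biased genes 2 were higher and 2 lower (13.3% each, against 8.89% and 9.54% of all genes). Spink3, a male-biased protease inhibitor, rose 4.50-fold, adjusted p = 0.000320, and Csad, which makes taurine, 4.40-fold, adjusted p = 0.0128, up to 0.0534 without 18-month array 1. Srd5a2 rose 1.57-fold, adjusted p = 0.0361, up to 0.122 without 9-month array 1, 2 or 3 or 18-month array 3 or 4, whereas its female-biased relative Srd5a1 fell 2.64-fold, adjusted p = 0.0153, up to 0.0578 without 9-month array 1 or 18-month array 1. The female-biased sulfotransferase Sult2a2 rose 4.45-fold, adjusted p = 0.00181, and Cyp3a9 fell 2.92-fold, adjusted p = 0.00175. The main male P450, Cyp2c11, did not pass (9.55 ± 0.13 (SD, n = 3) at 9 months and 8.91 ± 0.03 at 18 months, adjusted p = 0.281), nor did the female Cyp2c12 (-0.52 ± 0.38 (SD, n = 3) at 9 months and -0.61 ± 0.29 at 18 months, adjusted p = 0.913).

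Among P450 families 1 to 3, 1 of 26 was higher and 2 lower, below the shares of all genes. With the session term 0 were higher and 4 lower, and in the 6 arrays fitted alone 3 were higher and 6 lower. Cyp1a1, the target of the dioxin receptor, was well above background on 1 array of 9 months and 3 of 18 months and rose 4.05-fold, adjusted p = 0.0294, up to 0.107 without 9-month array 1, 2 or 3 or 18-month array 3 or 4. Cyp2t1 fell 1.73-fold, adjusted p = 0.00676. Por, which passes electrons to every microsomal P450, measured 1.76, 1.95 and 2.11 on the 9-month arrays and 4.05, 4.24 and 4.44 on the 18-month arrays. Por rose 4.93-fold, log2 change 2.30 ± 0.37 (SE), adjusted p = 0.00138. It was named after its value was seen. Of 31 phase II enzymes 1 was higher (3.23%, against 8.89% of all genes) and 0 lower. The higher gene was Ugt2b7, which was below background at 9 months and rose at least 1.88-fold (adjusted p = 0.00114). With the session term 8 phase II enzymes were lower and 1 higher, and in the 6 arrays fitted alone 7 were lower and 2 higher. Normexp and scan day as a random block called 0 lower.

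Immediate early genes respond within minutes to growth and stress signals. Of 27, 4 were higher (14.8%) and 1 lower (3.70%), against 8.89% and 9.54% of all genes, with a median log2 change of 0.36. Zfp36, which speeds the decay of inflammatory mRNA, measured -2.22, -2.16 and -2.13 on the 9-month arrays and 0.07, 0.91 and 0.45 on the 18-month arrays. Its 18-month arrays lay above all 13 others and its 9-month arrays below all 13 others, a rise of 6.25-fold, log2 change 2.64 ± 0.22 (SE), adjusted p = 2.41e-05. Egr1, a zinc finger factor, measured -0.12, -0.13 and -0.44 on the 9-month arrays and 1.14, 3.34 and 1.80 on the 18-month arrays. Egr1 rose 5.0-fold, log2 change 2.32 ± 0.51 (SE), adjusted p = 0.00747. Ier3 rose 1.95-fold, adjusted p = 0.00317 and Junb 2.90-fold, adjusted p = 0.0168, up to 0.0711 without 9-month array 1 or 18-month array 3 or 4, the latter named after its value was seen. Jund, a member of the same family, measured 4.97, 4.74 and 4.96 on the 9-month arrays and 3.68, 4.05 and 3.56 on the 18-month arrays. Jund fell 2.18-fold, log2 change -1.13 ± 0.22 (SE), adjusted p = 0.00376. Fos and Jun did not pass (Fos -2.90 ± 0.50 (SD, n = 3) at 9 months and -1.75 ± 1.71 at 18 months, adjusted p = 0.247, Jun 3.97 ± 0.19 (SD, n = 3) at 9 months and 5.13 ± 0.46 at 18 months, adjusted p = 0.0828).

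Stress lists were mixed. In the p53 and senescence list 4 of 28 were higher and 4 lower (14.3% each), against 8.89% and 9.54% of all genes. Cdkn1a, the p53-induced cell cycle inhibitor p21, measured 4.68, 5.21 and 4.90 on the 9-month arrays and 3.55, 2.42 and 2.47 on the 18-month arrays. Cdkn1a fell 4.34-fold, log2 change -2.12 ± 0.46 (SE), adjusted p = 0.00717. At the other ages it was 3.84 ± 0.11 at 3 months, 2.48 ± 1.18 at 12 months and 3.67 ± 0.35 at 24 months (n = 4). The 9-month arrays were thus above all others. Gadd45b, a stress sensor, rose 2.91-fold, adjusted p = 0.00963, and the inhibitor Cdkn1b 1.44-fold, adjusted p = 0.0155, up to 0.0658 without 9-month array 2 or 18-month array 1. Sesn2 fell 1.73-fold, adjusted p = 0.0117, up to 0.0515 without 18-month array 4, and the stress cytokine Gdf15 3.85-fold, adjusted p = 0.0457, up to 0.192 without 9-month array 1 or 2 or 18-month array 3 or 4, the latter named after its value was seen. Cdkn2a, the senescence marker p16, did not pass (-2.35 ± 0.24 (SD, n = 3) at 9 months and -2.41 ± 0.50 at 18 months, adjusted p = 0.887). The heat shock list had 3 of 22 higher (13.6%) and 0 lower. The higher genes were the chaperone Hspa8 (1.80-fold, adjusted p = 0.00629), Hspa4 (1.34-fold, adjusted p = 0.0226, up to 0.0773 without 9-month array 1 or 2 or 18-month array 3 or 4, second probe 2.13 on the log2 scale) and Hsph1 (1.80-fold, adjusted p = 0.0367, up to 0.133 without 9-month array 1 or 2 or 18-month array 1, 3 or 4). Of 27 genes of the endoplasmic reticulum 1 was higher (3.70%) and 4 lower (14.8%). Atf4, the factor of the integrated stress response, measured 6.56, 6.16 and 6.44 on the 9-month arrays and 5.61, 5.34 and 5.45 on the 18-month arrays. Atf4 fell 1.89-fold, log2 change -0.92 ± 0.15 (SE), adjusted p = 0.00161. The chaperone Calr fell 1.51-fold, adjusted p = 0.0123, up to 0.0621 without 18-month array 4, and the disulfide isomerases Pdia5 1.53-fold, adjusted p = 0.0131, up to 0.0618 without 9-month array 1 or 3 and Pdia6 1.5-fold, adjusted p = 0.0360, up to 0.119 without 9-month array 1, 2 or 3 or 18-month array 3 or 4. Herpud1, which aids the removal of misfolded proteins, rose 2.40-fold, adjusted p = 0.00102. Pdia6 was named after its value was seen.

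Antioxidant and metal genes moved singly. Of 25 NRF2 targets and antioxidant enzymes 3 were higher (12.0%) and 2 lower (8.0%), against 8.89% and 9.54% of all genes. Gclm, a subunit of the enzyme of glutathione synthesis, was below background on every 9-month array and entered the test only through the 18-month arrays, where it was at least 3.31-fold higher. Srxn1 rose 1.69-fold, adjusted p = 0.0111, up to 0.0530 without 9-month array 3, and the extracellular dismutase Sod3 fell 1.94-fold, adjusted p = 0.00474. Of 25 iron and copper genes 3 were higher and 3 lower (12.0% each), near the same shares of all genes. Slc31a1, the copper importer, measured -1.72, -1.99 and -1.68 on the 9-month arrays and 1.70, 1.72 and 1.46 on the 18-month arrays. The 18-month arrays lay above all 13 others, a rise of 10.73-fold, log2 change 3.42 ± 0.37 (SE), adjusted p = 0.000112. On the 12-month arrays it was at -1.84 on array 2, of session 1, and at 0.09 and 0.04 on arrays 3 and 4, of session 2. With the session as a term its log2 change was 1.51 (adjusted p = 0.00553). The metallothionein Mt2A rose 4.69-fold, adjusted p = 0.0198, up to 0.0914 without 9-month array 2 or 3 or 18-month array 4, and Mt1 did not pass (7.51 ± 0.66 (SD, n = 3) at 9 months and 8.65 ± 0.73 at 18 months, adjusted p = 0.0855). The ferrireductase Steap3 fell 3.52-fold, adjusted p = 0.00872, and the iron exporter Slc40a1 rose 1.34-fold, adjusted p = 0.0210, up to 0.0870 without 9-month array 1 or 2 or 18-month array 3 or 4.

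Part of the interferon-induced genes fell, with 7 of 42 called lower (16.7%, against 9.54% of all genes), 0 higher and a median log2 change of -0.41. Calls numbered 4 lower with the scan session as a term and 2 with normexp. Gbp4, a guanylate-binding protein of host defence, measured -3.71, -3.37 and -3.38 on the 9-month arrays and -5.60, -5.97 and -5.16 on the 18-month arrays, below background at 18 months, which makes its fall at least 1.99-fold (adjusted p = 0.00358). The kinase Eif2ak2, which halts translation on viral RNA, fell 1.65-fold, adjusted p = 0.0123, up to 0.0571 without 9-month array 3 or 18-month array 4 (second probe -0.26 on the log2 scale), Parp14 1.56-fold, adjusted p = 0.0227, up to 0.100 without 9-month array 1 or 3 or 18-month array 3 or 4 and Irgm 2.84-fold, adjusted p = 0.0197, up to 0.0787 without 9-month array 1 or 3 or 18-month array 3 or 4. Gbp5, below background at 18 months, fell at least 1.71-fold (adjusted p = 0.0369, up to 0.13 without any 1 of the 6 arrays), the immunoproteasome subunit Psmb9 1.89-fold, adjusted p = 0.0249, up to 0.0920 without 9-month array 1 or 3 or 18-month array 3 or 4 and Igtp 1.55-fold, adjusted p = 0.0461, up to 0.157 without any 1 of the 6 arrays. The last 3 were named after their values were seen. Outside the list, Ifgga2l1 measured 4.85, 4.67 and 4.91 on the 9-month arrays and 2.50, 1.82 and 2.06 on the 18-month arrays, a fall of 6.43-fold, log2 change -2.68 ± 0.39 (SE), adjusted p = 0.000691. In bulk liver, fewer cells of a type and less RNA per cell cannot be told apart.

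Neutrophil and alarmin genes had 4 of 16 higher (25.0%, against 8.89% of all genes) and 0 lower, with a median log2 change of 0.63. The limma fit with the scan session as a term called 0 higher, with 2 at an unadjusted p under 0.05, and normexp called 1. Their mean level was -3.07 to -2.77 on the 9-month arrays and -2.65 to -1.62 on the 18-month arrays. Cxcl1, a chemokine that attracts neutrophils, measured -0.65, -0.81 and -0.17 on the 9-month arrays and 2.17, 2.31 and 4.61 on the 18-month arrays. It rose 11.9-fold, log2 change 3.57 ± 0.97 (SE), adjusted p = 0.0219, up to 0.0986 without 9-month array 1 or 2 or 18-month array 4, and 18-month array 4 lay above the other 2 of its age. At the other ages it was 4.996 ± 0.06 at 3 months, 2.08 ± 0.78 at 12 months and 3.94 ± 2.14 at 24 months (n = 4). The granule protease Prtn3 measured -2.40, -2.25 and -3.12 on the 9-month arrays and -0.99, -0.92 and -0.64 on the 18-month arrays. Prtn3 rose 3.33-fold, log2 change 1.74 ± 0.37 (SE), adjusted p = 0.00631. The peroxidase Mpo rose 3.22-fold, adjusted p = 0.0348, up to 0.137 without 9-month array 1 or 3 or 18-month array 1, 3 or 4, with 1 of the 9-month arrays above background, and the lectin Fcnb 2.40-fold, adjusted p = 0.0187, up to 0.0869 without 9-month array 1 or 3 or 18-month array 4. The abundant alarmins did not pass (S100a8 -1.74 ± 0.50 (SD, n = 3) at 9 months and -0.71 ± 0.83 at 18 months, adjusted p = 0.537, S100a9 -0.67 ± 0.35 (SD, n = 3) at 9 months and -0.18 ± 0.88 at 18 months, adjusted p = 0.756).

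Among immune cells, the list of macrophages and Kupffer cells had 2 of 28 genes higher (7.14%, against 8.89% of all genes) and 0 lower. The higher genes were the receptor Mertk (1.71-fold, adjusted p = 0.0439, up to 0.143 without 9-month array 1, 2 or 3 or 18-month array 1 or 4) and Slc40a1. The mean level of that list was 0.97 to 1.16 at 9 months and 0.90 to 1.14 at 18 months, and the Kupffer cell markers did not pass (Clec4f 6.73 ± 0.07 (SD, n = 3) at 9 months and 6.41 ± 0.21 at 18 months, adjusted p = 0.139, Marco 0.95 ± 0.22 (SD, n = 3) at 9 months and 0.97 ± 0.53 at 18 months, adjusted p = 0.981). By limma 0 of 10 genes of MHC class II presentation were called, with 1 at an unadjusted p under 0.05, against 4 higher when the 6 arrays were fitted alone and 2 lower without 9-month array 2. Cd74 was 2.41 ± 0.18 (SD, n = 3) at 9 months and 2.87 ± 0.15 at 18 months, adjusted p = 0.547. Of 27 T and NK cell genes 1 was lower (3.70%, against 9.54% of all genes). It was Tnfrsf9, a costimulatory receptor, which fell at least 2.48-fold (adjusted p = 0.00118). The T cell marker Cd3e was above background on 1 array of 9 months and 0 of 18 months. Among 12 B and plasma cell genes 2 were higher (16.7%) and 1 lower (8.33%, against 9.54% of all genes), with a median log2 change of 0.87. By limma 0 were higher with normexp and 0 with the scan session as a term, against 1 and 0 higher at an unadjusted p under 0.05. Cd79a, part of the B cell receptor, was below background at 9 months and entered the test only through the 18-month arrays, where it was at least 2.04-fold higher. The B cell lectin Cd22 measured 1.47, 0.74 and 1.34 on the 9-month arrays and -1.12, 0.09 and -0.28 on the 18-month arrays. Cd22 fell 3.07-fold, log2 change -1.62 ± 0.36 (SE), adjusted p = 0.00787. Derl3, above background on 1 array of 9 months and 3 of 18 months, rose 4.07-fold, adjusted p = 0.0309, up to 0.13 without 9-month array 1 or 3 or 18-month array 1, 3 or 4, and its log2 change was -0.12 with the scan session as a term. The mean level of the B cell list was -4.13 to -3.69 at 9 months and -3.36 to -3.21 at 18 months.

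Of 28 acute phase genes 1 was higher (3.57%, against 8.89% of all genes) and 0 lower. The higher gene was the interleukin 6 receptor Il6r, which measured 2.20, 1.91 and 2.18 on the 9-month arrays and 3.12, 3.47 and 3.46 on the 18-month arrays. Il6r rose 2.38-fold, log2 change 1.25 ± 0.25 (SE), adjusted p = 0.00487. Of 33 complement and coagulation genes 5 (15.2%) were lower and 0 higher, against 9.54% of all genes lower, among them the terminal components C9 (1.34-fold, adjusted p = 0.0345, up to 0.107 without any 1 of the 6 arrays) and C8b (1.48-fold, adjusted p = 0.0234, up to 0.0896 without 9-month array 2 or 3 or 18-month array 1 or 4). The protease Masp2 fell 1.47-fold, adjusted p = 0.0268, up to 0.0891 without 9-month array 1 or 3 or 18-month array 1, 3 or 4, the lectin Mbl2, named after its value was seen, 1.73-fold, adjusted p = 0.0348, up to 0.136 without 9-month array 1, 2 or 3 or 18-month array 3 or 4 and coagulation factor F10 1.3-fold, adjusted p = 0.0273, up to 0.0997 without 9-month array 1, 2 or 3 or 18-month array 3 or 4. None of these 5 calls held in all fits that left out 1 array.

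Part of the cell division genes fell. Of 34 tested 9 fell (26.5%) and 1 rose (2.94%), against 9.54% and 8.89% of all genes, with a median log2 change of -0.62. The limma fits with the scan session as a term and with scan day as a random block called 0 lower, against 9 and 7 at an unadjusted p under 0.05, and normexp called 1. Cdk1, the kinase that starts mitosis, measured 1.48, 0.80 and 0.75 on the 9-month arrays and -1.39, -0.78 and -1.49 on the 18-month arrays. Cdk1 fell 4.69-fold, log2 change -2.23 ± 0.47 (SE), adjusted p = 0.00645. Its cyclin Ccnb1 measured -1.11, -1.97 and -1.78 on the 9-month arrays and -3.80, -3.12 and -4.18 on the 18-month arrays. Ccnb1 fell 4.23-fold, log2 change -2.08 ± 0.45 (SE), adjusted p = 0.00717. Ccna2, of S phase, was above background on 3 arrays of 9 months and 1 of 18 months and fell 4.31-fold, adjusted p = 0.00524. The mitotic motor Kif20a fell 4.09-fold, adjusted p = 0.00747, Ube2c 3.46-fold, adjusted p = 0.0164, up to 0.0725 without 9-month array 1 or 18-month array 1, Top2a 4.07-fold, adjusted p = 0.0302, up to 0.109 without any 1 of the 6 arrays, Bub1b 3.54-fold, adjusted p = 0.0364, up to 0.138 without 9-month array 1, 2 or 3 or 18-month array 1 or 4 and the kinase Plk1 2.25-fold, adjusted p = 0.0391, up to 0.158 without 9-month array 1 or 3 or 18-month array 1, 3 or 4. Top2a and Bub1b were each above background on 3 arrays of 9 months and 1 of 18 months. Foxm1, which drives these genes, fell 1.71-fold, adjusted p = 0.0308, up to 0.105 without any 1 of the 6 arrays, and its log2 change was 0.23 with the scan session as a term. The last 6 were named after their values were seen. Ccne1, the cyclin of entry into S phase, went the other way and measured -1.85, -2.09 and -1.59 on the 9-month arrays and -0.19, 0.11 and -0.17 on the 18-month arrays. Ccne1 rose 3.39-fold, log2 change 1.76 ± 0.33 (SE), adjusted p = 0.00317. The proliferation marker Mki67 did not pass (-1.13 ± 0.46 (SD, n = 3) at 9 months and -2.47 ± 0.14 at 18 months, adjusted p = 0.0603).

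Of 33 matrix genes 7 fell (21.2%) and 1 rose (3.03%), against 9.54% and 8.89% of all genes, with a median log2 change of -0.30. Session as a term left 3 lower calls. The mean level of the stellate cell and matrix list was 0.19 to 0.58 at 9 months and 0.12 to 0.22 at 18 months. Pdgfrb, a growth factor receptor of stellate cells, measured 0.80, 0.22 and 0.88 on the 9-month arrays and -0.78, -0.82 and -1.06 on the 18-month arrays. Pdgfrb fell 2.87-fold, log2 change -1.52 ± 0.21 (SE), adjusted p = 0.000549. Mmp2, a gelatinase, measured 0.74, 0.75 and 0.03 on the 9-month arrays and -0.86, -0.80 and -1.27 on the 18-month arrays. Mmp2 fell 2.80-fold, log2 change -1.48 ± 0.19 (SE), adjusted p = 0.000319. The cross-linking enzyme Loxl1 measured -0.12, -0.39 and -0.52 on the 9-month arrays and -1.65, -1.72 and -2.10 on the 18-month arrays. Loxl1 fell 2.79-fold, log2 change -1.48 ± 0.20 (SE), adjusted p = 0.000445. Collagen Col3a1 fell 1.80-fold, adjusted p = 0.00149, Col1a2 1.78-fold, adjusted p = 0.00918 and Col5a1 1.61-fold, adjusted p = 0.0119, and Loxl2 1.48-fold, adjusted p = 0.0250, up to 0.106 without 9-month array 1 or 3 or 18-month array 1 or 3. For all 7 of these the 18-month arrays, which alone filled slide 7, lay below all 13 others, as for 22.8% of all called falls. The higher gene was Col4a1, of basement membranes, 1.57-fold, adjusted p = 0.0429, up to 0.125 without any 1 of the 6 arrays, but its second probe gave a log2 change of -0.67. Col1a2, Col5a1, Loxl2 and Col4a1 were named after their values were seen.

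In 24 endothelial genes 1 was higher (4.17%, against 8.89% of all genes). It was Wnt2, 1.83-fold, adjusted p = 0.00582, with -0.54 as the log2 change of its second probe. Of 16 cholangiocyte genes 1 was higher and 1 lower (6.25% each, against 8.89% and 9.54% of all genes). The higher was the claudin Cldn4 (2.68-fold, adjusted p = 0.000560, second probe -1.02), and the lower the keratin Krt19 (2.42-fold, adjusted p = 0.0162, up to 0.0762 without 9-month array 1 or 18-month array 3). The mean level of the cholangiocyte list was -1.81 to -0.99 at 9 months and -1.70 to -1.58 at 18 months. Of 27 hepatocyte genes 4 were lower (14.8%, against 9.54% of all genes) and 0 higher, with a median log2 change of -0.23. The mean level of the hepatocyte list was 5.998 to 6.07 at 9 months and 5.87 to 5.98 at 18 months. The factor Foxa1, which opens liver chromatin, measured 1.20, 1.08 and 1.22 on the 9-month arrays and -0.04, 0.31 and 0.68 on the 18-month arrays. Foxa1 fell 1.80-fold, log2 change -0.85 ± 0.16 (SE), adjusted p = 0.00383. Foxa3 fell 1.72-fold, adjusted p = 0.0190, up to 0.0863 without 9-month array 3 or 18-month array 4, Cebpa 1.64-fold, adjusted p = 0.0429, up to 0.132 without any 1 of the 6 arrays and the lipoprotein Apob 1.38-fold, adjusted p = 0.0221, up to 0.0971 without 9-month array 1 or 3 or 18-month array 3, with -0.08 as the log2 change of the second probe of Apob. By limma 0 of 8 erythroid genes and 0 of 9 adipose genes were called, with 0 and 1 at an unadjusted p under 0.05. In the 6 arrays fitted alone 1 erythroid gene was lower, and 1 adipose gene was higher and 1 lower. Of 11 pancreatic enzyme genes, 2 were higher (18.2%, against 8.89% of all genes), Cel (2.30-fold, adjusted p = 0.0194, up to 0.0750 without 9-month array 2 or 18-month array 4) and Prss2 (1.68-fold, adjusted p = 0.0215, up to 0.0835 without 9-month array 1 or 3 or 18-month array 1 or 3). Both had the 18-month arrays above all 13 others, as did 51.7% of all called rises.

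Amino acid metabolism had 2 of 34 members higher (5.88%) and 3 lower (8.82%), against 8.89% and 9.54% of all genes. Cth, which makes cysteine from cystathionine, measured 4.66, 4.88 and 4.36 on the 9-month arrays and 2.58, 2.11 and 1.37 on the 18-month arrays. Cth fell 6.11-fold, log2 change -2.61 ± 0.28 (SE), adjusted p = 0.000112. The aspartate and glutamate carrier Slc25a13 fell 1.60-fold, adjusted p = 0.00448, and Gamt, which makes creatine, 1.54-fold, adjusted p = 0.0181, up to 0.0757 without 9-month array 2 or 3 or 18-month array 1 or 4. Mat1a, which makes S-adenosylmethionine, rose 2.02-fold, adjusted p = 0.0238, up to 0.0960 without 9-month array 1 or 3 or 18-month array 1 or 4 and was named after its value was seen.

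Of 41 oxidative phosphorylation genes 2 were lower (4.88%, against 9.54% of all genes) and 0 higher, with a median log2 change of -0.24. The lower genes were Ndufb10 (1.41-fold, adjusted p = 0.0215, up to 0.0780 without 9-month array 1 or 3 or 18-month array 1, 3 or 4) and Ndufa2 (1.32-fold, adjusted p = 0.0298, up to 0.106 without 9-month array 1, 2 or 3 or 18-month array 1 or 4). With the session term 8 of the 41 were lower, against 1116 of all 21457 genes. In the 6 arrays fitted alone 8 were lower, against 3906 of all genes. Normexp and scan day as a random block called 0 lower. Of 31 proteasome subunits 2 were lower (6.45%) and 0 higher. These were Psmb5 (1.46-fold, adjusted p = 0.0319, up to 0.121 without 9-month array 1 or 3 or 18-month array 1, 3 or 4) and Psmb4 (1.36-fold, adjusted p = 0.0499, up to 0.152 without any 1 of the 6 arrays). With the session term 6 subunits were lower, and in the 6 arrays fitted alone 6 were lower and 2 higher. Normexp and scan day as a random block called 0 subunits. Autophagy and lysosome genes had 2 of 39 higher (5.13%, against 8.89% of all genes) and 3 lower (7.69%). The proton pump subunits Atp6v1a (1.72-fold, adjusted p = 0.0134, up to 0.0522 without 9-month array 1 or 18-month array 3) and Atp6v1h (1.49-fold, adjusted p = 0.0119, up to 0.0558 without 9-month array 1) were the higher pair, and with the scan session as a term the log2 change of Atp6v1a was -0.0022. Wipi2, of autophagosome formation, fell 1.48-fold, adjusted p = 0.0101, and the protease Ctsh 1.66-fold, adjusted p = 0.00971. Of 9 oncofetal genes 1 was lower (11.1%, against 9.54% of all genes). It was Igf2bp2, below background at 18 months, at least 1.94-fold (adjusted p = 0.0238, up to 0.0934 without 9-month array 1 or 3 or 18-month array 3 or 4).

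**Figure D3:**
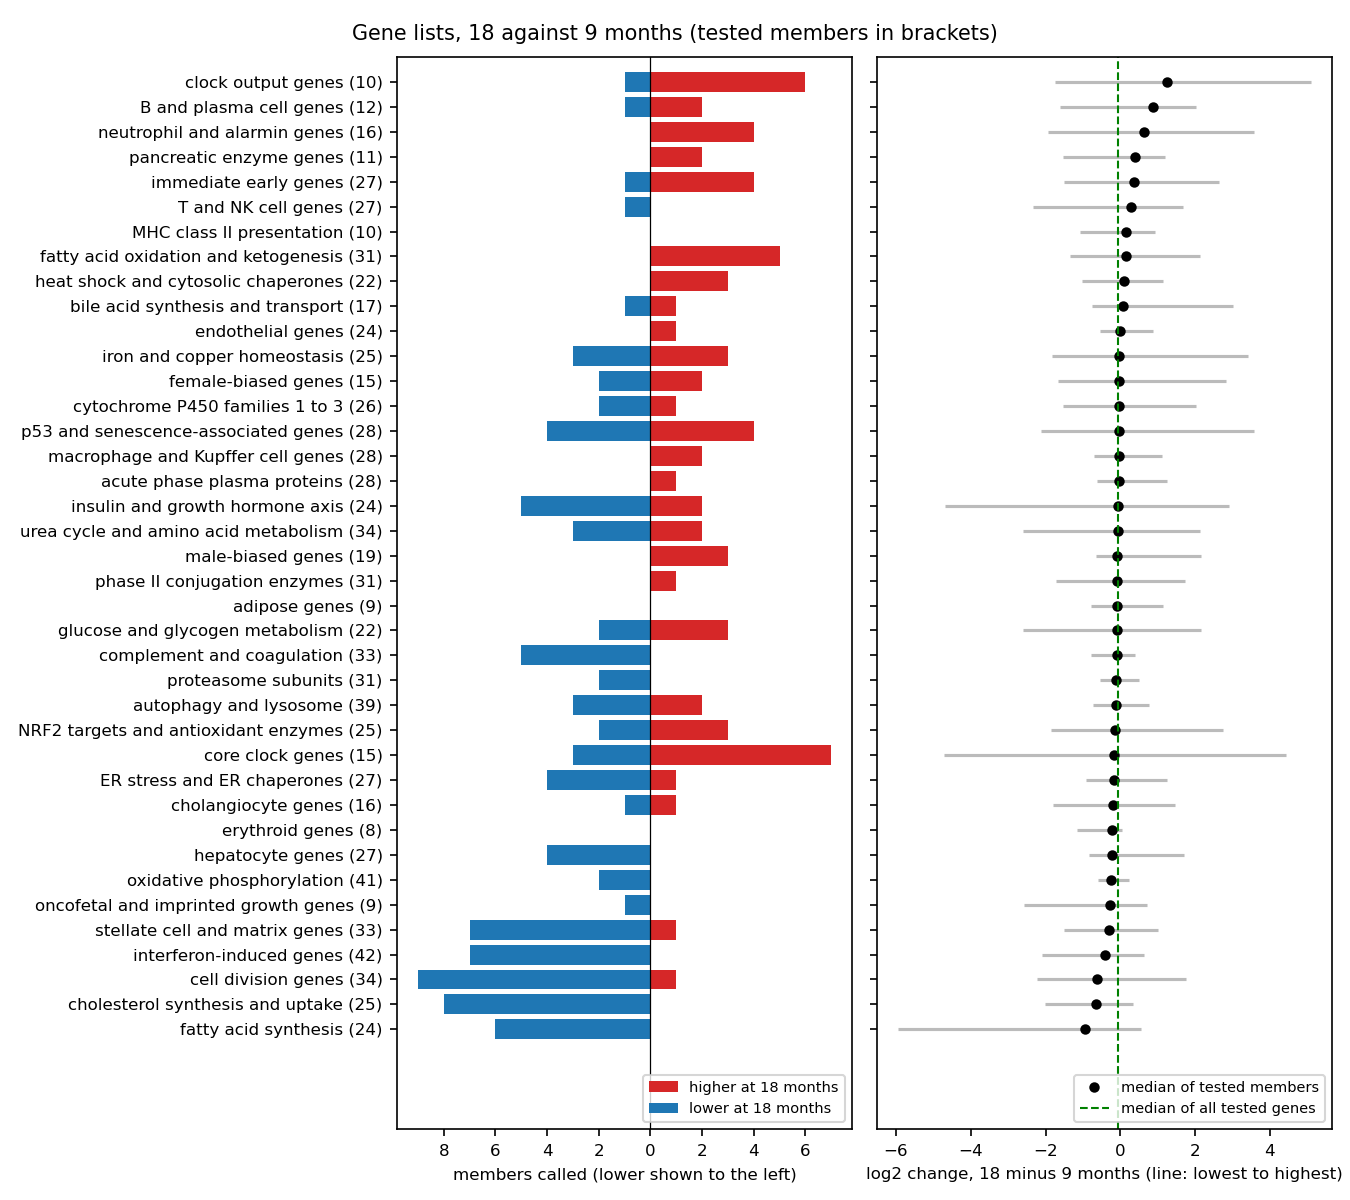
For each of 39 gene lists (vertical axis, members tested in brackets), the members called higher (red, right) and lower (blue, left) at 18 months, and beside it the median (point) and the lowest and highest (line) log2 change of its members, with the median of all genes as a dashed line. The clock output list has the highest median, 1.26, and fatty acid synthesis the lowest, -0.94.

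Over all lists 151 of 870 different genes were called, 63 higher and 88 lower, which is 17.4% against 18.4% of all genes tested. The session term gave 96 calls among list genes and the slide block 6. The lists were written with earlier results of these data known.

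Several of the largest changes lay outside the lists. Ddhd1, a phospholipase, measured 3.05, 2.42 and 2.75 on the 9-month arrays and -1.27, -0.32 and -1.17 on the 18-month arrays. Ddhd1 fell 12.6-fold, log2 change -3.66 ± 0.53 (SE), adjusted p = 0.000707. Chka, which makes phosphocholine, measured 1.09, 0.71 and 1.07 on the 9-month arrays and -1.60, -2.81 and -2.93 on the 18-month arrays. Chka fell 10.6-fold, log2 change -3.41 ± 0.37 (SE), adjusted p = 0.000114. Onecut1, a liver transcription factor, measured 6.71, 6.09 and 6.60 on the 9-month arrays and 2.57, 3.20 and 4.78 on the 18-month arrays. Onecut1 fell 7.72-fold, log2 change -2.95 ± 0.64 (SE), adjusted p = 0.00746. Nectin2, a cell adhesion protein, measured 0.71, 0.75 and 0.59 on the 9-month arrays and -1.48, -2.01 and -1.98 on the 18-month arrays. It fell 5.69-fold, log2 change -2.51 ± 0.25 (SE), adjusted p = 6.94e-05, and it was the one fall among the 8 named genes that passed with slide as a random block. Of the other falls, Gimd1 was lower 7.18-fold, adjusted p = 0.00451, Nrep 6.97-fold, adjusted p = 0.00253, the matrix protein Comp 6.42-fold, adjusted p = 0.00869 and the phosphate carrier Slc34a2 6.30-fold, adjusted p = 0.0340, up to 0.126 without 9-month array 1, 2 or 3 or 18-month array 3 or 4. The calcium pump Atp2b2 was lower 5.65-fold, adjusted p = 0.0254, up to 0.0995 without 9-month array 1, 2 or 3 or 18-month array 3 or 4, Dipk2a 5.23-fold, adjusted p = 0.00968 and the transporter Slc17a4 5.17-fold, adjusted p = 0.000408.

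Ergic2, a protein of the early secretory pathway, measured -3.10, -3.37 and -3.20 on the 9-month arrays and -0.27, -0.30 and -0.31 on the 18-month arrays. The 18-month arrays lay within 0.1 of each other and above all 13 others, a rise of 7.64-fold, log2 change 2.93 ± 0.32 (SE), adjusted p = 0.000125, and with the scan session as a term the log2 change was 1.51 (adjusted p = 0.0245). The uridine phosphorylase Upp2 measured -1.25, -1.12 and -1.87 on the 9-month arrays and 0.36, 0.93 and 1.97 on the 18-month arrays. Upp2 rose 5.66-fold, log2 change 2.50 ± 0.50 (SE), adjusted p = 0.00459. The carnitine carrier Slc22a5 measured -2.07, -2.45 and -2.91 on the 9-month arrays and -0.40, -0.26 and 0.43 on the 18-month arrays. Slc22a5 rose 5.27-fold, log2 change 2.40 ± 0.37 (SE), adjusted p = 0.00103, with 0.85 from its second probe. Mrgprf, an orphan receptor, rose 5.20-fold, adjusted p = 0.000378.

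Among the called genes with a symbol, 81 that were higher lay above background on all arrays of 18 months and none of 9 months, and 55 showed the reverse. Of these, 63 of 81 and 14 of 55 entered the test through 1 age alone, the one where they were high. Colq, which anchors acetylcholinesterase, measured -5.48, -6.22 and -6.14 on the 9-month arrays and -1.34, -0.41 and 1.18 on the 18-month arrays, at least 21.4-fold higher (adjusted p = 0.00685). Rnf186, a ubiquitin ligase, measured -4.80, -6.72 and -5.99 on the 9-month arrays and -0.80, -1.73 and 0.83 on the 18-month arrays, at least 16.5-fold higher (adjusted p = 0.00587). The channel Kcnn2 was at least 7.58-fold higher (adjusted p = 0.000477) and the kinase Tnni3k at least 4.56-fold (adjusted p = 0.00406). Sult4a1, a brain-type sulfotransferase, measured -0.88, -1.25 and -0.82 on the 9-month arrays and -6.73, -5.79 and -6.51 on the 18-month arrays, at least 11.3-fold lower at 18 months. The sialyltransferase St8sia1 was at least 5.06-fold lower, Prrg4 at least 3.89-fold and the lymphocyte receptor Klrg1 at least 4.0-fold (adjusted p = 0.00799). Sult4a1, St8sia1 and Prrg4 entered the test only through the 9-month arrays. With normexp 0 of the 16 named genes with a bound were called by limma, and the log2 change of all 16 kept its sign but was smaller than the bound. The constant added with normexp shrinks the change of a gene at background, so this outcome does not test the bounds. These bounds set the mean of the brighter age against the higher of the background limit and the measured signal on each array of the dimmer age.

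The called genes differed in which age stood apart from the other 3 ages. Of the 1908 genes that were higher, 986 (51.7%) had all 18-month arrays above the other 13 arrays and 211 (11.1%) had all 9-month arrays below the other 13. Of the 2048 that were lower, 466 (22.8%) had the 18-month arrays below all others and 413 (20.2%) the 9-month arrays above all others. Named falls with the 9-month arrays above all others include Cdkn1a, Atf4, Fads1, Foxa1 and Cebpa. Named rises with the 9-month arrays below all others include Gadd45b, Egr1, Fkbp5 and Cyp17a1. Among rises with a symbol, 360 of 813 had the 18-month arrays above all others. The 18-month arrays share 1 slide, which holds no other age, and the part of that slide in these genes was not tested apart from the block. Notch3, a receptor of vessel walls, is an example, with 2.87, 3.12 and 1.95 on the 9-month arrays and 4.999, 5.03 and 4.88 on the 18-month arrays and a rise of 5.0-fold, log2 change 2.32 ± 0.49 (SE), adjusted p = 0.00668, against -0.12 as its log2 change with the scan session as a term. It was named after its value was seen. By contrast, 150 rises and 210 falls had the 3-month and 9-month arrays on one side of all arrays of 12, 18 and 24 months, as Dbp did. The groups of 9 and 18 months alone did not overlap for 10946 genes, 51.0% of those tested.

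**Figure D4:**
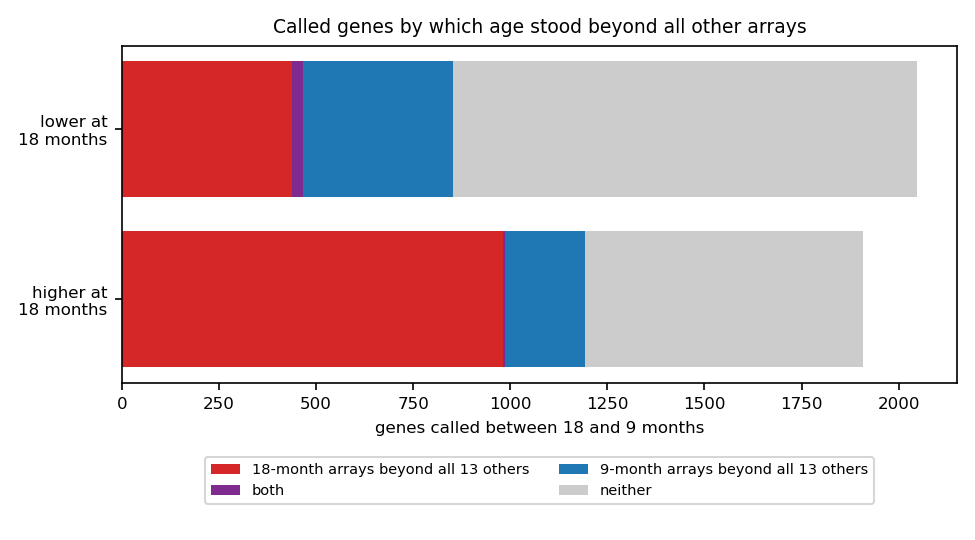
Genes called between 18 and 9 months (horizontal axis, number of genes) by direction (vertical axis), split by whether the 18-month arrays, the 9-month arrays, both or neither lay beyond all 13 other arrays. The 18-month arrays stood beyond all others for 986 of 1908 rises and 466 of 2048 falls.

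Where a called gene had a second kept probe, the probes mostly moved the same way. The second probe had the sign of the first for 280 of 315 falls (88.9%) and 164 of 208 rises (78.8%). It was itself called in the same direction for 101 falls and 52 rises, and in the opposite direction for 6 falls and 9 rises.

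**Figure D5:**
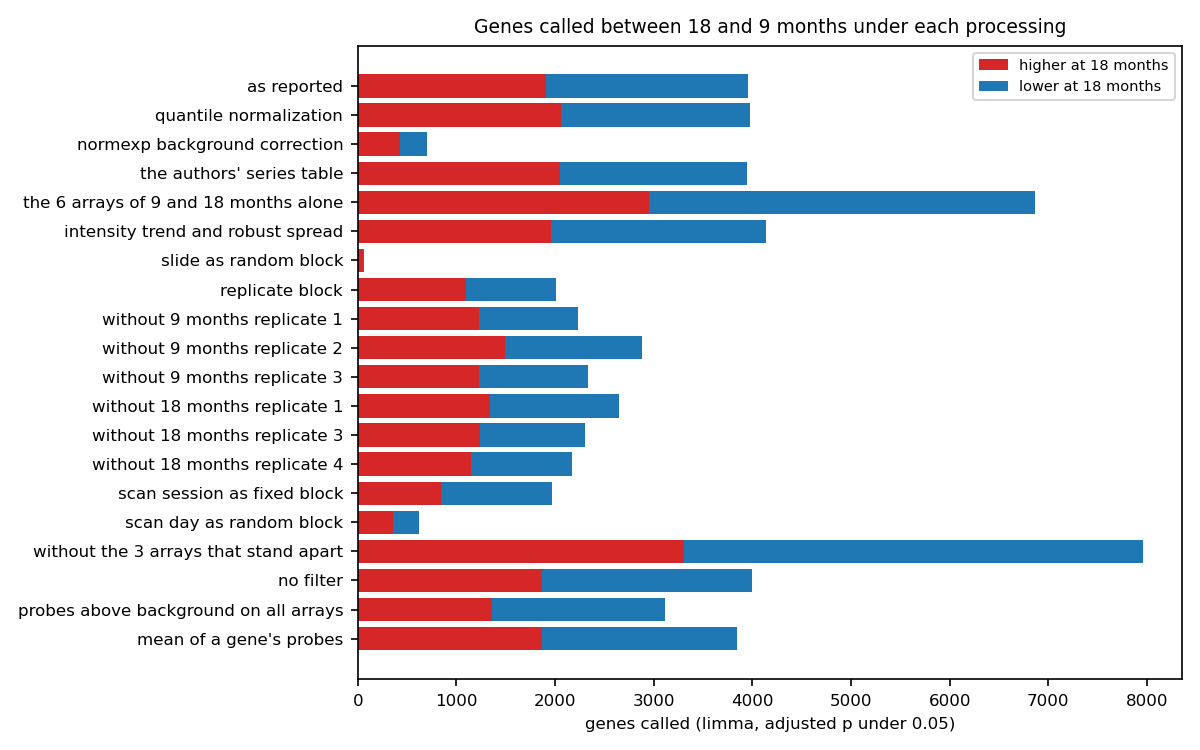
Number of genes called between 18 and 9 months (horizontal axis, limma adjusted p under 0.05) under each processing (vertical axis), with rises in red and falls in blue. The reported 3956 calls compare with 63 when slide is a random block and 7957 when the 3 arrays that stood apart are left out.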

How the data were processed

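Messenger RNA of 16 liver samples was measured on Agilent one-colour rat arrays. Per the file headers, the authors' Feature Extraction 10.7.3.1 output holds intensity values with no normalization between arrays, and the flags for background, saturation and outliers hold values of a different kind (other). The deposited series table holds log2 values whose normalization is not given in the sources used here. It served as an alternative.

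Each array's processed signal was put on the log2 scale, less its 75th percentile. Outlier spots were set to missing and spots of a probe averaged. Probes were kept where every array of some age lay well above background, and the kept probe with the highest mean stood for its gene. Of 41012 probes, 18028 were named through accessions of RefSeq build GRCr8, 3568 through symbols or synonyms, and 19416 kept the array's name. A mean per age was fitted over all genes with limma 3.58.1 (statmod 1.5.0, data.table version 1.17.8, R 4.3.3), two-sided, with Benjamini-Hochberg adjustment over all genes and a threshold of 0.05. The procedure was tested on simulated data with independent noise on each array and no slide or scan effect, so that test does not cover such effects. It recovered 57 of 100 simulated 2-fold changes and 86 of 100 of 4-fold, and 11 of its 154 calls were false.

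Groups followed the stated age, and replicate numbers 1 and 3, shared by the ages, showed no pairing. The genes to name were, among called genes with a symbol, the 15 largest rises and the 15 largest falls above background on all 6 arrays, up to 4 members of each list with the smallest adjusted p, and, in each direction, at most 4 genes that lay above background at only 1 of the ages. Others are marked where they are named. Some genes that the rule or the lists picked are not reported here. Members and lists were chosen with earlier results of these data known. After each adjusted p, "up to" gives its highest value among the fits that left out 1 of the 6 arrays, where that lay above the threshold, with the arrays whose absence ended the call. Alternatives were other normalizations, background correction, filters, probe rules, arrays and blocks. The number of arrays limits the precision.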

Additional observations from a re-analysis of the deposited data

Results flagged for a closer look

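For 46 genes the 24-month arrays were checked for 1 array far from the other 3 of its age, and 5 genes had such an array, where chance gives about 1 in 20. Usp2 was at 0.28 on 24-month array 3 and at 2.52 to 2.93 on the others. Nrep was at -0.66 on array 3 and at 1.31 to 1.60 on the others, and Cry2 at -2.39 on array 3 and at -1.80 to -1.69 on the others. Array 3 was also among the arrays that correlated least with their age. Mrgprf was at -3.05 on 24-month array 1 and at -2.56 to -2.47 on the others, and Fdps at 5.27 on array 1 and at 6.14 to 6.31 on the others. These arrays entered the fit through the shared spread alone.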

How the results depend on the processing

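With the main processing 3956 genes and 151 list genes were called. Quantile normalization, the series table, averaged probes, the intensity trend, no filter and a filter on every array gave 3112 to 4140 genes. The counts were 702 genes and 55 list genes with normexp, 6860 and 304 in the 6 arrays alone, 63 and 6 with slide as a random block (consensus correlation 0.69), 1965 and 96 with the scan session as a term, 623 and 41 with scan day as a random block, and 7957 and 316 without the 3 arrays that stood apart. The last 3 settings were chosen after seeing the data. Calls with the slide block were rises in 84.1% of cases, against 48.2%. The cause of these differences was not tested. Leaving out 1 array gave 2168 to 2885 genes and 93 to 122 list genes, with the lowest count of genes without 18-month array 4. The counts were 2235 without 9-month array 1, 2337 without 9-month array 3 and 2305 without 18-month array 3, and list genes numbered 93 without 9-month array 1 and 94 without 18-month array 4. The second probe had the sign of the first in 84.9% of called genes, 83.4% to 85.5% with 1 array left out, and 75.9% with the session term.

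Replicate numbers 1 and 3 are shared by the ages. With the replicate block 2011 genes and 89 list genes were called. The deviations of same-numbered arrays correlated at 0.0003 for number 1 and 0.06 for number 3. No pairing was evident, but so few shared numbers cannot exclude it. No fit within a slide, scan day or session was possible, because none held both ages.

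Of the 137 genes picked by the rule, 91 passed in all 6 fits that left out 1 array, 66 with normexp and 101 with the replicate block. Of 176 genes named in all, 7 reversed with the session term: Derl3 (-0.12), Atp6v1a (-0.0022), Insig1 (0.34), Gpam (0.095), Foxm1 (0.23), Col4a1 (-0.068) and Notch3 (-0.12). Wnt2 reversed to -0.54 where probes had to lie above background on all arrays, and Col4a1 to -0.0088 with the mean of its probes. No named gene reversed in the other settings run.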

Other observations

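Olfactory receptor genes, which serve the sense of smell in the nose, were looked at after their values were seen. Of 170 tested, 50 were higher at 18 months and 4 lower, with a median log2 change of 0.65, against 8.89% and 9.54% of all genes tested. Probes were kept where every array of some age lay well above background, so a gene could enter through the 18-month arrays alone, which favours a rise. How many of the 170 entered this way was not counted. In 41 of the 50 the 18-month arrays, which share 1 slide, lay above all 13 other arrays, and the part of the slide in this was not tested. Genes without a symbol showed the same pattern in 626 of 1095 rises (57.2%), against 360 of 813 rises with a symbol (44.3%).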
